A study of Mus musculus with 6 samples.

Results

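The clustered protocadherin genes on mouse chromosome 18 were examined for H3K4me3 and for HA-tagged ASH2L. They comprise 57 of the 21938 protein-coding genes of the GENCODE vM21 annotation on GRCm38 (mm10), and they were chosen by their symbols alone. The alpha cluster has 14 of them, the beta cluster 22 and the gamma cluster 21. In the annotation, 2 gene entries carry the symbol Pcdha11. The entry that starts at position 37005203 is named Pcdha10 in RefSeq and is called Pcdha10 here, whereas Pcdha11 is kept for the entry that starts at 37010712. Pcdhgb8, annotated as a polymorphic pseudogene, is not a member, and no H3K4me3 peak overlapped its promoter.

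H3K4me3 and HA-ASH2L were mapped by CUT&RUN, in which a nuclease tethered to an antibody cuts out the bound chromatin and the released DNA is sequenced. All 6 samples came from E14 cells, a line of mouse embryonic stem cells, and all were treated with doxycycline for 48 h. Anti-HA was used in 2 samples of HA-Ash2L cells and in 2 samples of the parental WT cells, and anti-H3K4me3 in 2 samples of HA-Ash2L cells. The labels call the HA-Ash2L genotype a knock-in, but the treatment they describe induces a transgene, so the level of the tagged protein need not be that of endogenous ASH2L. Anti-HA data from parental cells are not analysed here. Each peak list was called by the authors on merged duplicates, so every value below belongs to a merged library, no spread between cultures can be given and no difference was tested. The H3K4me3 list held 59927 peaks from 27328071 tags after filtering, and these peaks contained 45.7% of the tags. The HA-ASH2L list held 2464 peaks from 25677963 tags, with 0.398% of the tags in peaks.

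Clustered protocadherins are cadherin-like cell surface proteins that give individual neurons distinct identities and mediate homophilic recognition. In the alpha and gamma clusters, each variable exon encodes the extracellular, transmembrane and part of the cytoplasmic domain, has its own promoter and is spliced to constant exons shared by the whole cluster. The beta genes have no constant exons and encode their protein in 1 exon. Neurons choose promoters of the alpha, beta and most gamma genes in varied combinations, with DNA methylation, CTCF and cohesin taking part in the choice, whereas the C-type genes Pcdhac1, Pcdhac2, Pcdhgc3, Pcdhgc4 and Pcdhgc5 are used more uniformly. Most alpha variable exons bind CTCF at the promoter and again inside the exon, and antisense transcripts that start inside alpha exons are known. H3K4me3 marks active and poised promoters, especially those rich in CpG, and ASH2L is a core subunit of the MLL/SET1 complexes that deposit it.

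The lists contain no expression values, so the cell type could be checked only through promoters of marker genes. Of 6 ES cell markers, Klf4, Zfp42 and Esrrb had an H3K4me3 peak at the promoter, but Pou5f1, Sox2 and Nanog had none in this list. Of 6 neuron markers, 5 had a peak, and only Neurod6 had none. The markers therefore do not distinguish the labelled cell type. Because 3 genes that define ES cells lack a listed peak, the absence of a listed peak is not read here as absence of the mark. Why these genes lack a peak was not tested.

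At the member promoters, taken from 1000 bp before to 100 bp after each transcript start, 38 of 57 genes (66.7%) overlapped an H3K4me3 peak. Across all protein-coding genes the share was 68.4%, so under this rule, which asks for an overlap of 1 bp, the members as a whole were close to the background. When the summit had to lie inside this window, 22 members (38.6%) and 53% of all genes had a peak, and with 2500 bp on both sides of the start the shares were 96.5% and 71.9%. The beta cluster stood apart from the others, with 13 of 14 genes in the alpha cluster (92.9%), 6 of 22 in the beta cluster (27.3%) and 19 of 21 in the gamma cluster (90.5%). These counts were 7, 4 and 11 with the summit inside the window, and 8, 4 and 7 with only the peaks at or above the median fold enrichment of the list. With this last filter, 36.4% of all genes had a promoter peak, and the 7 of 21 gamma genes were close to that share. Many peaks of the locus did not lie at a start site but inside the variable exon. A peak summit lay in the longest coding exon, at least 1000 bp downstream of the gene start, in 28 of 57 members (49.1%). Among the 722 protein-coding genes with a coding exon of 2000 bp or more, members included, this share was 24.5%. Among the 665 of these that are not members, 149 had such a summit (22.4%), and in 22 of them (3.31%) no peak overlapped the promoter. Of the members, 16 (28.1%) had such a summit without a promoter peak, and all 16 were beta genes. The sets were not matched for exon position. In members the exon begins near the gene start, but in other genes it can lie anywhere in the gene. The measure was added after the peaks of the locus had been seen. With only the peaks at or above the median fold enrichment, 15 members had such a summit (2 alpha and 13 beta genes). The share of the 722 genes was not computed with this filter. With all peaks, only Pcdha8, Pcdhgb7 and Pcdhgc5 had neither a promoter peak nor a summit in the exon.

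**Figure D1:**
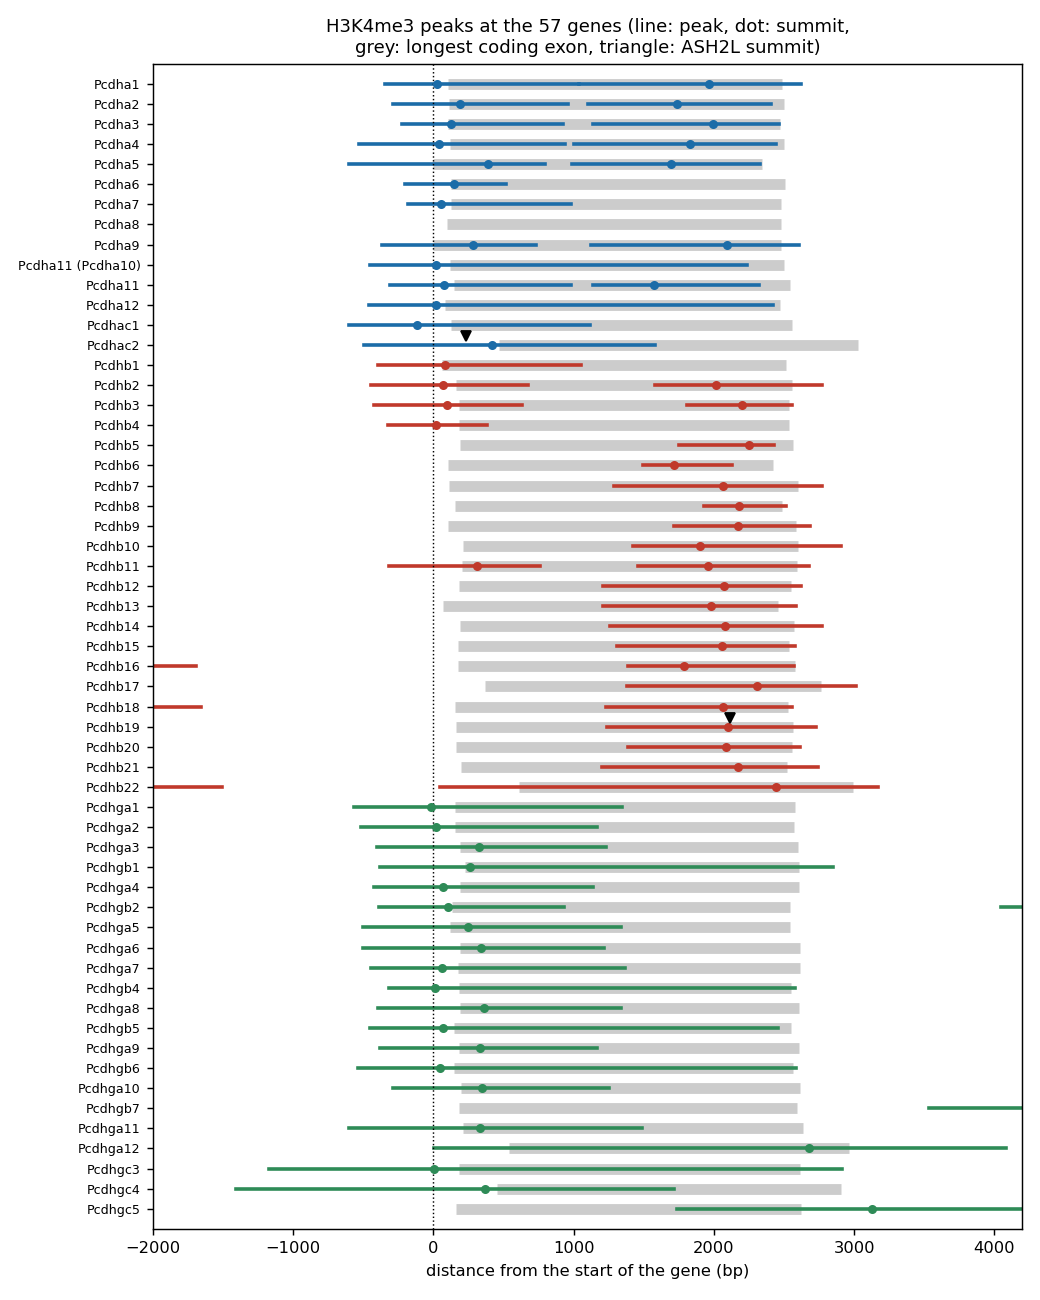
H3K4me3 peaks of the merged library at each of the 57 genes, drawn against the distance from the gene start in bp. Coloured lines are peaks, dots are summits, grey bars are the longest coding exon and black triangles are ASH2L summits; in the beta cluster 20 of 22 genes have a summit near the 3′ end of the exon, whereas 18 of 21 gamma genes have a peak at the start and no summit far inside the exon.

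In the alpha cluster, 7 genes carried a pair of separate H3K4me3 peaks, one at the start and another inside the exon. These were Pcdha1, Pcdha2, Pcdha3, Pcdha4, Pcdha5, Pcdha9 and Pcdha11, and in Pcdha11 the peak in the exon also overlapped the promoter window of another annotated transcript of the gene. At Pcdha1, the peak at chr18:36929836-36931219 had 109 tags and a summit 23 bp downstream of the start, and the next peak, at chr18:36931225-36932803, had 106 tags and a summit 1965 bp downstream. The summits inside the exon lay between 1570 and 2092 bp from the start, with a median of 1827 bp, and their peaks had 65 to 113 tags. In 6 of the 7 genes the promoter peak had more tags than the peak in the exon, but by little at Pcdha3 (98 against 97) and Pcdha1 (109 against 106). Pcdha9 was the exception, with 58 tags at the promoter and 106 in the exon. The fold enrichment was higher in the exon at Pcdha4 (6.9 against 4.35), Pcdha9 (7.9 against 4.46) and Pcdha11 (6.06 against 6.0), and lower there in the rest.

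The remaining alpha genes showed other arrangements. At Pcdha10 and Pcdha12, a continuous peak extended from the promoter through most of the variable exon, 2690 bp with 197 tags and 2883 bp with 238 tags, and its summit lay 15 and 19 bp from the start. Pcdha6 and Pcdha7 had a promoter peak only, with 35 and 63 tags. Pcdha6 had the fewest tags of all member promoters with a peak. Pcdha8, which starts at 36992371 between these genes and Pcdha9, had no peak at the promoter or in the exon, although its CpG content was that of its neighbours (36 CpG dinucleotides within 500 bp of the start, against 37 at Pcdha6 and 33 at Pcdha7).

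In the beta cluster, H3K4me3 lay mostly near the end of the coding exon. A summit inside the exon was present in 20 of 22 genes, all but Pcdhb1 and Pcdhb4. It lay 1718 to 2444 bp from the gene start, with a median of 2076 bp, and a median of 474.5 bp before the end of the exon. The 20 peaks had a median of 98.5 tags and a median fold enrichment of 7.85, which relates the tags at the summit to a local background estimated by the peak caller without a control library. The highest fold enrichments were 13.09 at Pcdhb20, 12.16 at Pcdhb5, 11.84 at Pcdhb19, 11.02 at Pcdhb9, 10.64 at Pcdhb7 and 10.31 at Pcdhb12, and the other 14 were below 10. The fewest tags were at Pcdhb6 (25 tags, fold enrichment 4.94), Pcdhb8 (31 tags, 8.36) and Pcdhb5 (40 tags, 12.16). A high fold enrichment in this cluster was thus also reached with few tags.

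The 16 beta genes with a peak in the exon and none at the promoter were Pcdhb5 to Pcdhb10 and Pcdhb12 to Pcdhb21. Their peaks had 25 to 162 tags, with a median of 103.5, and the most tags were at Pcdhb17 (162 tags, chr18:37486175-37487808). Pcdhb10 had 149 tags and the highest p-value score of these genes, 492.9; this score is the negative log10 of the peak caller's p-value times 10, and 50 is the cutoff. Pcdhb21 had 145 tags and a fold enrichment of 4.52, and Pcdhb18 had 133 tags and 6.59. At Pcdhb14, Pcdhb19 and Pcdhb12 there were 131, 130 and 116 tags, and at Pcdhb13 there were 109. Pcdhb7, Pcdhb20, Pcdhb16, Pcdhb15 and Pcdhb9 had between 69 and 98 tags.

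A promoter peak was found at 6 beta genes. At Pcdhb1, the first gene of the cluster, it lay at chr18:37264545-37265991 with 114 tags, a fold enrichment of 11.26 and a summit 80 bp from the start, and there was no further peak in the exon. Pcdhb4 likewise had a promoter peak only, with 36 tags. Pcdhb2, Pcdhb3 and Pcdhb11 had a peak at either end, with 75 and 99 tags at Pcdhb2, 85 and 45 at Pcdhb3, and 56 and 85 at Pcdhb11, the promoter first. Pcdhb22, the last gene, has 2 annotated starts, and distances are given from the first, at 37517871. Its peak of 3122 bp and 270 tags began 48 bp downstream of that start and had its summit at 2444 bp. The coding exon begins at 37518481, so this peak covered sequence before the exon as well as the exon.

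In the gamma cluster, 19 of 24 peaks lay at member promoters. They had a median of 266 tags, against 109 for the 13 in the alpha cluster and 80 for the 6 in the beta cluster. The gamma cluster interleaves genes of the A and B subfamilies, and the extent of the peaks differed between these. All 12 Pcdhga genes had a promoter peak, and in 10 of 12 it ended less than 1400 bp downstream of the start. In Pcdhga1 to Pcdhga9 the ends lay between 1135 and 1364 bp. Of the 5 Pcdhgb promoter peaks, 4 extended more than 2400 bp downstream, to 2847 bp at Pcdhgb1, 2577 bp at Pcdhgb4, 2459 bp at Pcdhgb5 and 2586 bp at Pcdhgb6, and thus through most or all of the coding exon.

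Among the Pcdhga genes, the highest fold enrichment was at Pcdhga7 (11.97, 302 tags, chr18:37714320-37716128), followed by Pcdhga2 (10.01, 261 tags), Pcdhga1 (9.8, 298 tags), Pcdhga6 (9.68, 211 tags) and Pcdhga3 (9.31, 233 tags). Pcdhga5 had 266 tags and a fold enrichment of 7.44, and Pcdhga4 had 221 tags and 6.3. Pcdhga8, Pcdhga9, Pcdhga10 and Pcdhga11 had 202 to 260 tags and fold enrichments of 6.01 or less. Pcdhga12 differed from the rest in the width of its peak and in the place of the summit. It has 2 annotated starts, and distances are given from the first, at 37765580. Its peak of 4083 bp and 651 tags began 1 bp downstream of that start, before the coding exon, which begins at 37766117. The summit lay at 2680 bp, which is 18 bp from the annotated start of the minus-strand transcript Gm26672.

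Among the Pcdhgb genes, Pcdhgb4 had the most tags (328), followed by Pcdhgb6 (311), Pcdhgb1 (283) and Pcdhgb5 (277). Pcdhgb2 had a shorter peak of 1321 bp that ended 932 bp from the start, with 146 tags, a fold enrichment of 3.97 and a score of 52.17, close to the cutoff. No peak was listed at Pcdhgb7. Start sites of the gamma cluster lie a median of 5346 bp apart, and the peak caller took its regional background from 10000 bp, so the background of a peak here can contain its neighbours. Other peaks within 5000 bp held a median of 70 tags around alpha promoter peaks, 113 around peaks in alpha exons and 92 around beta promoter peaks, but 0 around the 19 gamma promoter peaks and around the 19 beta peaks in exons that overlapped no promoter. Single peaks of these last groups did have neighbours. They held 487 tags at Pcdhgb2, 429 at Pcdhga4, 311 at Pcdhga9, 221 at Pcdhgb1, 202 at Pcdhgb6 and 146 at Pcdhga5, and up to 270 in the beta exons, at Pcdhb21. The part of this in the low fold enrichments or in the missing peaks was not tested.

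The C-type genes, which are the last of the alpha and gamma clusters, included the widest promoter peak among the members. The peak of Pcdhac1, at chr18:37089413-37091130, had 161 tags and was enriched 11.32-fold. The peak of Pcdhac2, at chr18:37143008-37145086, had 316 tags, the most in the alpha cluster, and its fold enrichment was 9.13. At Pcdhgc3 the peak was 4088 bp wide with 585 tags and a summit 4 bp from the start, and at Pcdhgc4 it was 3129 bp wide with 429 tags. The promoter of Pcdhgc5, which starts at 37819513, had no peak. Its coding exon was entered from the 3′ side by the widest peak of the locus, at chr18:37821246-37827986 (6741 bp, 1008 tags, fold enrichment 3.36), whose summit lay outside this exon. The same peak covered the first constant exon of the gamma cluster, and a peak with 473 tags at chr18:37839555-37843300 covered the last one. No peak overlapped a constant exon of the alpha cluster.

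**Figure D2:**
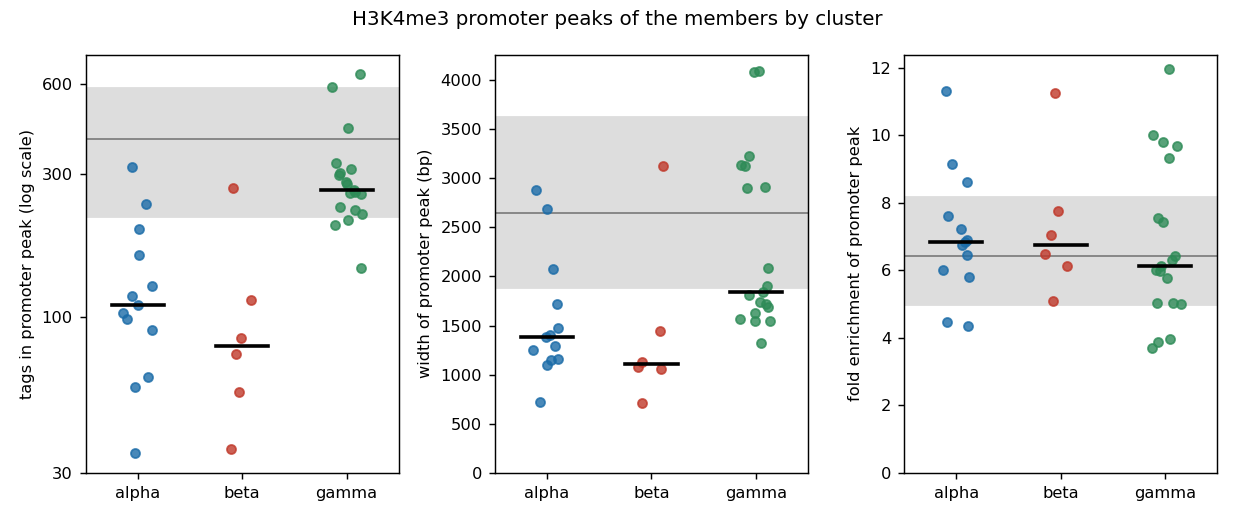
Tags (log scale), width in bp and fold enrichment of the H3K4me3 promoter peaks of the 38 members with a peak, by cluster. Points are genes, black bars are cluster medians, and the grey band and line are the quartiles and the median of 16734 peaks at protein-coding promoters; tags and widths lie mostly below the grey line, whereas fold enrichments lie on both sides of it.

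Compared with the 16734 H3K4me3 peaks at protein-coding promoters, with medians of 393 tags, 2647 bp of width and 6.41 of fold enrichment, most member peaks had fewer tags and were narrower. All 13 alpha peaks, all 6 beta peaks and 16 of 19 gamma peaks had fewer tags than that median. Below the lower quartile of 215 tags were 11 of 13 alpha, 5 of 6 beta and 3 of 19 gamma peaks. Narrower than the median were 11 of 13 alpha, 5 of 6 beta and 12 of 19 gamma peaks, whereas the 5 Pcdhgb peaks (median 2913 bp) and the 2 Pcdhgc peaks (median 3608 bp) tended to be wider. The fold enrichments did not share this order, with medians of 6.84, 6.755 and 6.12 for the alpha, beta and gamma clusters. Above the upper quartile of 8.17 were 3 alpha peaks, 1 beta peak and 5 gamma peaks.

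The clusters also differed in the CpG content of their start sites, as read from the GRCm38 sequence. The ratio of observed to expected CpG within 500 bp of the start had a median of 0.682 in the alpha, 0.378 in the beta and 0.594 in the gamma cluster. For comparison, it was 0.689 in all protein-coding genes with an H3K4me3 peak at the promoter and 0.166 in those without. Within the beta cluster, the ratio was similar for the 6 genes with a promoter peak (median 0.392, range 0.212 to 0.519) and the 16 without (median 0.3475, range 0.158 to 0.489). The value of 0.212 was that of Pcdhb22, measured around the first of its 2 annotated starts. Pcdhgc5 had a ratio of 0.233 and no peak, but Pcdha8 (0.723) and Pcdhgb7 (0.642) had no peak at ratios like those of their neighbours.

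Inside the exon, from 1200 to 2600 bp downstream of the start, the ratio and the cover by H3K4me3 were compared in the same way. In Pcdhga1 to Pcdhga9 the ratio lay between 0.227 and 0.353, and peaks covered at most 11.8% of this window. Pcdhga10 and Pcdhga11 had higher ratios, 0.512 and 0.557, with 3.57% and 20.7% covered. In Pcdhgb1, Pcdhgb4, Pcdhgb5 and Pcdhgb6 the ratios were 0.647, 0.713, 0.837 and 0.807, with 100%, 98.4%, 89.9% and 99% of the window in a peak. Pcdhgb2 (0.708) and Pcdhgb7 (0.757) had ratios of the same size and no cover. Pcdhga12 had a ratio of 0.768 and was covered completely. In Pcdha1 to Pcdha12 the median ratio was 0.68, and Pcdha6, Pcdha7 and Pcdha8, the alpha genes of this group without cover, had 0.681, 0.679 and 0.623. In the beta cluster the median was 0.4565, higher than that around the start, and a median of 85.4% was covered. Pcdhgc5, with a ratio of 0.369, had 62% covered. Pcdhb1, without a peak there, had 0.297, but Pcdhb4, also without one, had 0.515.

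**Figure D3:**
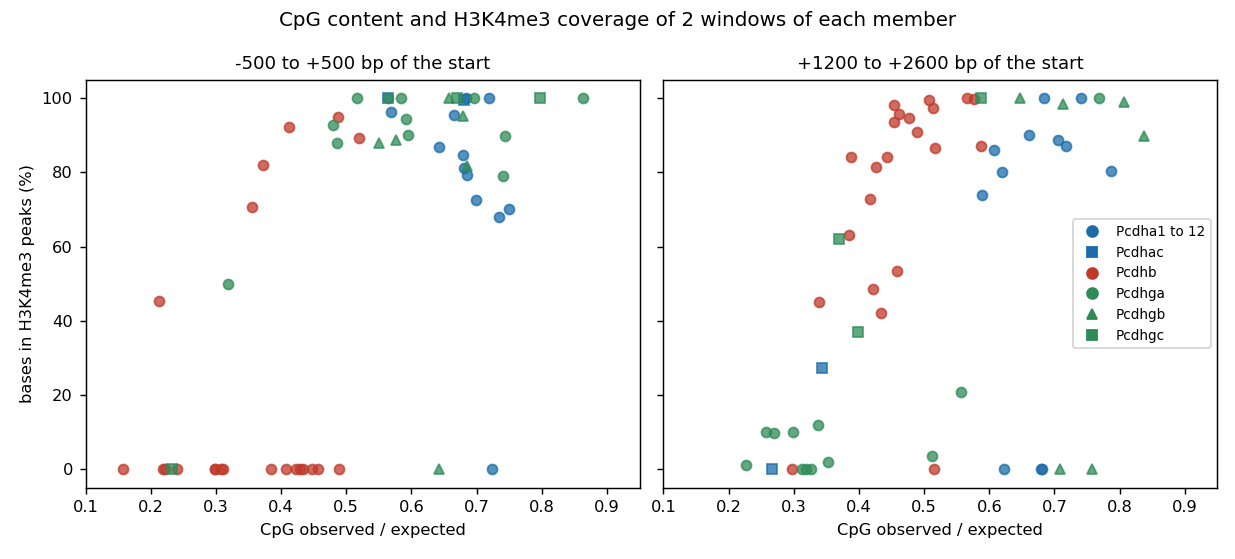
Share of bases in H3K4me3 peaks in percent against the ratio of observed to expected CpG, for 2 windows of each of the 57 genes, at the start (left) and inside the exon (right). Each point is a gene, coloured by cluster and shaped by subfamily; in the right panel Pcdhga1 to Pcdhga9 have ratios up to 0.353 and cover up to 11.8%, whereas 4 of 6 Pcdhgb genes have ratios of 0.647 or more and cover of 89.9% or more.

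The variable exons resemble one another, so reads from them can be hard to place. The share of 50 bp stretches that occur again in the locus was highest in the exon windows of Pcdhgb2 (33%) and Pcdhgb1 (31.9%). It was 8.65% for Pcdha8 and 0.74% for Pcdhgb7, which had no peak, and 22.6% for Pcdha6 and 10.6% for Pcdha7. In the window around the start it was 2.1% for Pcdha8, 7.67% for Pcdhgb7 and 0% for 11 of the 16 beta genes without a promoter peak. The part of unplaced reads in missing peaks was not tested beyond these values.

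ASH2L was found at few members. Only Pcdhac2 had an ASH2L peak at the promoter (1 of 57 genes, 1.75%), against 7.67% of all protein-coding genes. The call was lost, leaving 0 of 57 members, when an overlap of 200 bp, a summit inside the window or a score of 100 was required, which left 7.07%, 5.42% and 0.912% of all genes. It was kept with only the peaks at or above the median fold enrichment (3.73% of all genes). The peak of Pcdhac2, at chr18:37143431-37144084, had 28 tags, a fold enrichment of 7.14 and a score of 64.53, and its summit was 185 bp from that of the H3K4me3 peak. A further ASH2L peak lay inside the exon of Pcdhb19, at chr18:37498747-37499487, with 27 tags, a fold enrichment of 6.29 and a score of 50.61. Its summit was 14 bp from that of the H3K4me3 peak in this exon. Both had fewer tags than the median ASH2L peak (32 tags), but higher fold enrichments than the median (5.37), at the 92.4 and 80 percentiles of the list. Whether ASH2L was bound more weakly at other members was not tested.

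**Figure D4:**
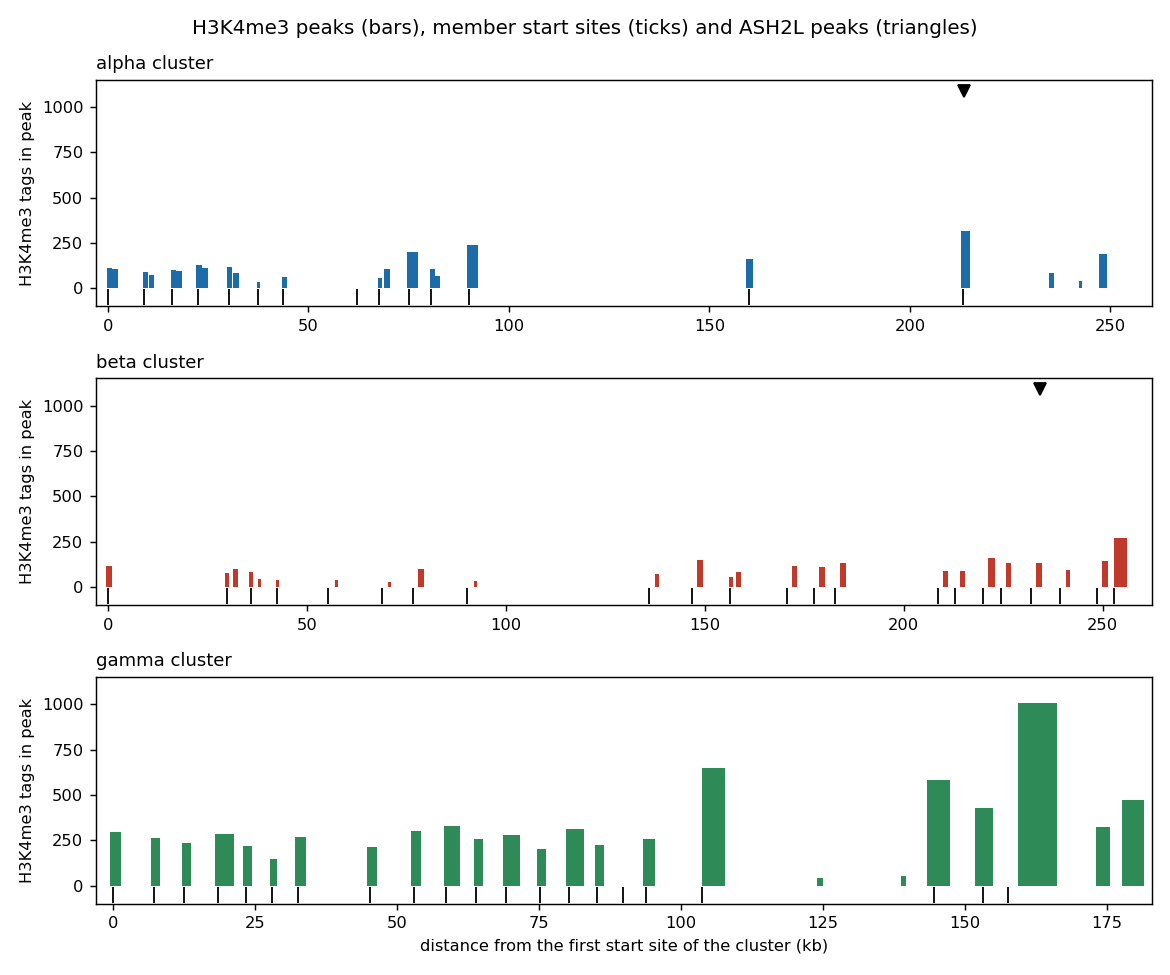
H3K4me3 peaks along the alpha, beta and gamma clusters, with the distance from the first start site of each cluster in kb on the horizontal axis and the tags of each peak on the vertical axis. Bars are as wide as the peaks, ticks under the bars are member start sites and black triangles are ASH2L peaks; the bars of the gamma cluster are the highest, and the tallest of them, with 1008 tags, lies beyond the last start site.

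Across the clusters, H3K4me3 peaks were dense. The alpha cluster held 23 peaks (8.93 per 100 kb), the beta cluster 25 (9.63) and the gamma cluster 24 (13.3), against 2.16 per 100 kb on chromosome 18 as a whole. Peaks covered 13% of the alpha, 12% of the beta and 31.5% of the gamma cluster, and 3.86% of the chromosome. The densities were not adjusted for the number of start sites, which lie a median of 7323 bp apart in the alpha and 7781 bp in the beta cluster. All 25 peaks of the beta cluster lay at a member promoter or in a variable exon. In the alpha cluster, 3 peaks lay elsewhere, all between Pcdhac2 and the last constant exon. Of these, the peak at chr18:37177402-37179221, with 187 tags and 11.95-fold enriched, overlapped the start of the minus-strand transcript Gm10544, and that with 42 tags lay at Gm38097. The third, with 83 tags at chr18:37164946-37166195, overlapped no annotated start. In the gamma cluster, 3 peaks lay neither at a member promoter nor in an exon. Those at chr18:37785825-37786764 and chr18:37800588-37801512, between Pcdhga12 and Pcdhgc3, had 40 and 51 tags, and that at chr18:37834910-37837349, between constant exons, had 323.

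Transcripts of the minus strand that do not encode a protein start within the locus at 13 annotated genes, and 11 of these had an H3K4me3 peak at the promoter. Among all 4045 annotated genes of the same types the share was 45.3%, but peaks are dense in this locus, so the count does not single out these transcripts. Several shared the peak with a member, as Gm10545 with Pcdha12 and BC037039 with Pcdhgc3, so the peak cannot be assigned to either. Among starts inside the coding exon of a member, that of Gm26672 was nearest to a summit, as given above for Pcdhga12. The start of Gm37165 was 53 bp from the summit at Pcdhga8, and that of Gm37446 was 148 bp from the summit in Pcdhb12. At Pcdha4, Pcdha6, Pcdha12, Pcdhga1 and Pcdhgc3 the distance was between 354 and 1554 bp. For the other beta exons with a summit, no such start is annotated within the peak.

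Genes related to the clustered protocadherins were compared by the same promoter rule. The share over all protein-coding genes was 68.4% for H3K4me3 and 7.67% for ASH2L, and the median over coding promoter peaks was 393 tags. All 12 non-clustered protocadherins had an H3K4me3 peak, with a median of 306 tags. Pcdh12 had the fewest (20 tags) and Pcdh10 the most (919 tags). All 15 genes listed for their known action on protocadherin promoters had a peak, with a median of 824 tags, among them Ctcf (997 tags), the cohesin subunit gene Rad21 (824 tags), the DNA methyltransferase gene Dnmt3b (887 tags) and Smchd1 (626 tags), a repressor of clustered protocadherins. Of these, Ctcf and Smchd1 also had an ASH2L peak. The 6 genes for partners of the cytoplasmic domains, such as the kinase gene Ptk2 and the WAVE complex gene Cyfip2, all had an H3K4me3 peak, and Cyfip2 an ASH2L peak. Of 8 genes next to or between the clusters, 7 had an H3K4me3 peak, including Taf7 (643 tags), which lies between the beta and gamma clusters. Only Slc25a2 had none. Hars and Hars2 were called by the same peak, with 658 tags.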

How the data were processed

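CUT&RUN was done by the authors in 6 samples in 3 groups of 2. The authors mapped reads to mm10 with Bowtie2, merged duplicates and called peaks with MACS. Per the file headers this was MACS 1.4.3, without a control library and with a p-value cutoff of 1e-05, whereas the methods name another version. The tag sizes in the headers (142 bp for H3K4me3, 151 bp for ASH2L) exceed the fragment size limit in the methods, and which fragments were counted is not settled. The deposited tag counts are unnormalized, the deposited fold enrichment is a ratio to the modelled background of the same library, and the deposited score is −log10 of the p-value multiplied by 10. Tags cannot be compared between the lists. The number of columns without a group was 0.

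Peaks were placed on GENCODE vM21 transcripts (GRCm38), with an overlap of at least 1 bp, and chromosomal sequence was used for CpG content and repeated 50 bp stretches. No test was possible, so counts and medians are set beside those of all genes. The overlap procedure was tested on simulated data. Software was matplotlib 3.10.9, pysam 0.24.0, scipy 1.17.1, numpy 2.4.6 and pandas 2.3.3 under Python 3.11.15. The members are defined by symbol and by no measured value, but this set of genes, the related lists and the alternatives were chosen with earlier results of these data known. By rule, members with a peak were named if there were at most 30, otherwise the 10 widest and 10 strongest, and the 5 C-type genes always; others are named to account for every member. The sequences of the members are not printed.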

Additional observations from a re-analysis of the deposited data

How the results depend on the processing

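For 8 results, 45 alternative values were computed, and 30 stayed within 1.5 times the main value, or for the covered share within its counting interval. With only peaks at or above the median fold enrichment (6.46 for H3K4me3), 19 members had an H3K4me3 promoter peak, and 7992 genes overall; 15 members had a summit inside the exon, the clusters had 5.31 H3K4me3 peaks per 100 kb and 7.86% of their bases in peaks, and 819 genes overall had an ASH2L promoter peak (median 5.37). With the summit required inside the promoter window, 22 members (38.6%, against 53% of all genes) had H3K4me3 and 0 (against 5.42%) had ASH2L. An overlap of at least 200 bp also left 0 members with ASH2L. With a score of 100 or more, 0 members and 200 genes overall had ASH2L, the clusters had 0 ASH2L peaks per 100 kb, and H3K4me3 covered 15.3% of their bases. With bounds extended by 20000 bp, this was 16.3%, against 17.4% as defined. A window of 2500 bp on both sides gave 2 members with ASH2L (3.51%, against 8.61% of all genes) and 55 with H3K4me3 (96.5%, against 71.9%), including all 22 beta genes, because it reaches the peaks in the exons. RefSeq transcripts gave 38 members with H3K4me3, as did the smaller window. They were added only after the peaks of the locus had been seen. The same holds for the count of summits inside exons and all its alternatives. No paired analysis was possible because peaks were called on pooled duplicates, and for the same reason no duplicate could be left out. The ASH2L result rests on 1 peak with 28 tags.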

Other observations

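Outside the clusters' own bounds, 7 H3K4me3 peaks lay wholly between the clusters. The highest fold enrichment of the locus, 15.43, was at chr18:37543201-37544748 (181 tags), between the beta and gamma clusters and at no annotated start, at the 99.3 percentile of the list. A peak at chr18:37567700-37568915 had 93 tags and a fold enrichment of 13.19, and one at chr18:37575484-37576497 had 63 tags and 9.12. Between the alpha and beta clusters, a peak at chr18:37217275-37218662 had 142 tags and a fold enrichment of 9.54. These 4 peaks overlapped no annotated start site. The remaining 3 lay at Taf7 (643 tags), at 3222401L13Rik (324 tags) and, with 32 tags, at no annotated start.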
